A study of Caenorhabditis elegans with 36 samples.

Results

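The transthyretin-like (ttr) genes of Caenorhabditis elegans were followed in first-stage (L1) larvae of 4 strains that were irradiated with UV, starved or left untreated. A ttr gene was a gene whose annotated symbol is ttr and a number and whose probe set carries only that symbol, and where a gene had several such probe sets the one of highest mean signal stood for it. This gave 40 ttr genes among 17118 measured genes. The RefSeq gene table (assembly WBcel235) lists 59 ttr symbols. Of the symbols without a value here, some fall on 3 probe sets that carry several ttr symbols and were left out, and ttr-11 and ttr-33 had no probe set with their symbol alone and were not analysed here.

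The ttr family is a large nematode-specific group of small, mostly secreted proteins that share a fold with vertebrate transthyretin, the carrier of thyroid hormone and retinol-binding protein. Most members have no described function. TTR-52 is a secreted protein that bridges phosphatidylserine exposed on dying cells to the engulfment receptor CED-1, TTR-11 acts in the fusion of regrowing axons, and TTR-33 protects dopaminergic neurons from oxidative damage. Insulin-like signalling in C. elegans runs through the receptor DAF-2, and loss of DAF-2 activity frees the FOXO transcription factor DAF-16 to enter nuclei and change transcription, as do starvation and other stresses.

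The data were 36 Affymetrix arrays of total RNA from whole larvae. UV-treated, starved and untreated larvae were measured for daf-16 mutants, daf-2 mutants, daf-2;daf-16 double mutants and the wild-type strain N2. There were 3 arrays per group, but 4 for starved daf-2;daf-16 and 2 for starved daf-16. Synchronized larvae had 4 h of food before UV and were collected 6 h after it. The labels give neither alleles nor a UV dose, and do not say how starved larvae were kept. They also do not say whether replicates were separate cultures, and p-values then measure only the spread between these samples. In RNA from whole larvae, fewer cells of a type and less RNA per cell cannot be told apart.

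Values are log2 signals as deposited. Differences are log2 differences with the standard error (SE) of a limma model over all 36 arrays, and a gene was called where the p-value adjusted by the Benjamini-Hochberg method over 22548 probe sets was under 0.05. The number of arrays limits the precision. The daf-2 label was checked with 6 known DAF-16 target genes. All 6 were higher in untreated daf-2 larvae than in untreated daf-2;daf-16 larvae, with a median difference of 3.74, and all 6 were higher than in N2 (3.39). The other labels were separated less. Against untreated N2, 2 of 6 were lower in daf-16 and 2 of 6 in daf-2;daf-16, and the labels of these 2 strains were not compared with each other. Markers of adults and embryos were low, with 10 measured genes averaging between 4.68 and 5.30 per array. Genes of the molting cycle, which rise and fall within each larval stage, moved with treatment and strain. Their score, the mean deviation of 32 genes from their own average, was −2.30 to −1.95 on the starved arrays, −1.34 to 1.76 on the UV arrays and 1.08 to 2.18 on the untreated arrays. Among starved daf-2;daf-16 arrays replicate 4, among daf-16 arrays after UV replicate 3, and among untreated daf-2;daf-16 arrays replicate 1 stood apart from their own groups over all probe sets. The standard deviation of differences to the other replicates was 0.254 to 0.258 against 0.154 to 0.158 in the first of these groups, 0.327 and 0.394 against 0.255 in the second, and 0.358 to 0.359 against 0.152 in the last. In the same order, the molting score of the array was −2.30 against −2.23 to −2.20, 0.73 against 1.70 and 1.76, and 1.91 against 1.08 and 1.09. The same score of 6 epidermis markers was −1.52 against −1.32 to −1.29, 0.21 against 1.18 and 1.21, and 1.52 against 0.58 and 0.62.

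The ttr genes split into a large group with clear signal and a small group near the bottom of the array. The mean over all arrays lay between 5.73 and 13.03 for 32 genes and between 3.21 and 4.40 for the other 8, while the lower quartile of all probe sets on an array was 4.13 to 4.40. The 3 highest means belonged to ttr-16 with 13.03, ttr-18 with 11.27 and ttr-24 with 11.24. The 3 lowest belonged to ttr-19 with 3.21, ttr-14 with 3.25 and ttr-9 with 3.41. A signal also depends on the probes, so these means do not order the transcripts by abundance. The probe sets of 6 members (ttr-15, ttr-18, ttr-24, ttr-44, ttr-50 and ttr-51) are marked on the array as shared and may also catch close relatives.

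Across the 12 groups, ttr genes varied more than the typical gene. The range of the 12 group means had a median of 1.60 over the ttr genes, against 0.68 over all genes. It was at least 1 for 27 of 40 ttr genes, against 34.5% of all genes, and at least 2 for 13 of 40, against 10.8% of all genes. Neither these comparisons nor the shares called below were matched for signal. The median of all probe sets on an array was 5.79 to 5.88, while 32 ttr genes had means of 5.73 or more. The 8 low members had ranges of only 0.19 to 0.53. The highest group mean was in starved larvae for 17 ttr genes, in UV-treated larvae for 13 and in untreated larvae for 10. The widest range was that of ttr-21, whose mean was 11.06 in starved N2 larvae and 7.35 in untreated N2 larvae. Those of ttr-2 (3.65), ttr-15 (3.55), ttr-26 (3.22) and ttr-17 (3.09) followed.

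**Figure D1:**
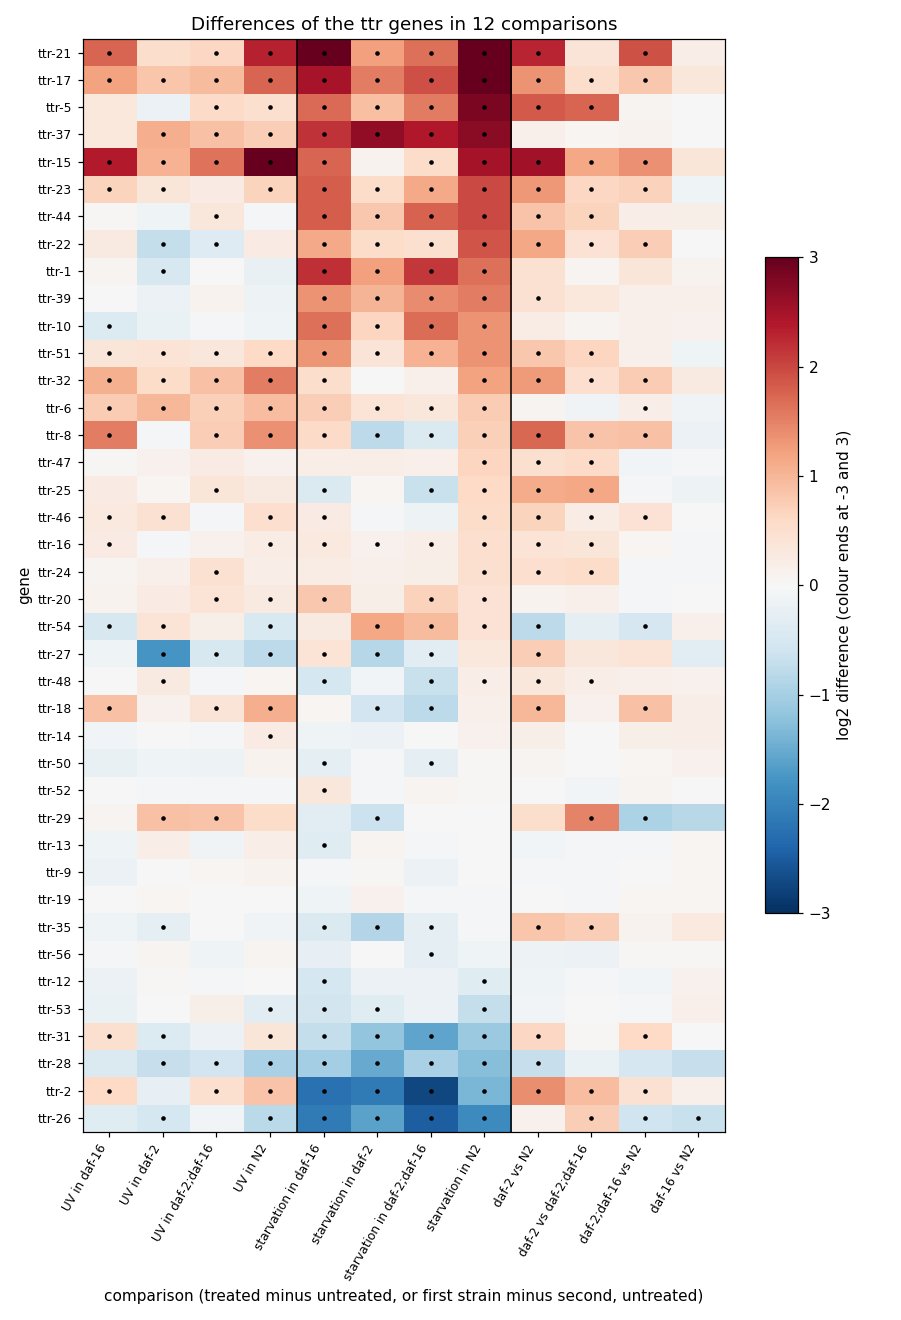
Log2 differences of the 40 ttr genes (rows, ordered by the starvation difference in N2) in 12 comparisons (columns: UV against untreated and starved against untreated in each strain, then pairs of untreated strains). Red is higher and blue lower in the group named first, and a dot marks adjusted p under 0.05; red prevails in the starvation columns at the top, where ttr-21 in N2 reaches 3.70, and in the daf-2 columns.

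Starvation raised more ttr genes than it lowered in every strain. The share that rose, 35% to 57.5%, was above that of all probe sets. The share that fell, 15% to 30%, was nearer that of all probe sets, and in N2 it was lower. In starved daf-16 larvae 20 of 40 ttr genes rose and 11 fell (27% of all probe sets rose and 24.2% fell). Of these called genes 4 were among the 8 of low signal, and the calls of ttr-13, ttr-50 and ttr-52 were lost without single arrays. In starved daf-2 larvae 14 rose and 10 fell (23.3% and 19.7% of all probe sets). In starved daf-2;daf-16 larvae 16 rose and 12 fell (27.7% and 26.8% of all probe sets). In starved N2 larvae 23 rose and 6 fell (28.3% and 24.7% of all probe sets). The median difference of the ttr genes was 0.25 in daf-16, 0.07 in daf-2, 0.04 in daf-2;daf-16 and 0.46 in N2, and that of all genes was −0.04, 0.03, −0.05 and −0.03 in the same order. The strains share no arrays in these comparisons. In all, 13 of 40 rose in 4 of 4 strains: ttr-1, ttr-5, ttr-6, ttr-10, ttr-16, ttr-17, ttr-21, ttr-22, ttr-23, ttr-37, ttr-39, ttr-44 and ttr-51. Of all genes, 18.9% did so. The daf-2 call of ttr-16 (0.14 ± 0.05) was lost without replicate 1 of untreated daf-2 or replicate 2 or 3 of starved daf-2 (0.12 to 0.13). Another 4 of 40 fell in 4 of 4 strains, ttr-2, ttr-26, ttr-28 and ttr-31, against 14.5% of all genes. No call was made in any strain for ttr-9, ttr-14 and ttr-19, the 3 members with the lowest signal, against 29.4% of all genes.

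The largest rise was that of ttr-21 (F09F3.6). Its signal was 10.88, 11.23 and 11.05 in starved N2 larvae, against 8.03, 7.08 and 6.95 in untreated N2 larvae. In daf-16 it averaged 10.97 ± 0.05 in starved larvae (SD, n = 2), against 7.02, 8.02 and 7.65 in untreated larvae. The groups were far apart in both strains, and all 12 starved arrays of the series lay between 10.66 and 11.23. The rise was 3.41 ± 0.23 in daf-16 (adjusted p 2.4e-14) and 3.70 ± 0.21 in N2 (13-fold, adjusted p 1.2e-16). In daf-2 it was 10.97, 11.02 and 10.66 in starved larvae, against 9.74, 9.66 and 9.52 in untreated larvae. In daf-2;daf-16 it was 10.83, 10.85, 10.88 and 11.09 in starved larvae, against 8.75, 9.47 and 9.57 in untreated larvae. Starved and untreated arrays did not overlap there either, but the untreated arrays of both daf-2 strains lay above every untreated array of N2 and daf-16, and the rises were 1.24 ± 0.21 and 1.65 ± 0.19.

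The same arrangement held for ttr-17 (Y5F2A.2). It had 11.53, 11.93 and 11.80 in starved N2 larvae, against 8.80, 8.63 and 8.56 in untreated N2 larvae, a rise of 3.09 ± 0.11 (adjusted p 5.8e-22). For daf-16 the rise was 2.48 ± 0.12, for daf-2 1.53 ± 0.11 and for daf-2;daf-16 1.93 ± 0.10. Every one of its 12 starved arrays was above every one of its 12 untreated arrays.

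By contrast, ttr-37 (F21E9.3) rose by a similar amount in all strains. Its signal was 7.98, 8.36 and 8.11 in starved N2 larvae, against 5.21, 5.62 and 5.48 in untreated N2 larvae. It was 8.49, 8.37 and 7.92 in starved daf-2 larvae, against 5.62, 5.62 and 5.51 in untreated daf-2 larvae. The untreated levels of the strains overlapped, all starved arrays were at least 7.43, and the rise was 2.17 ± 0.17 in daf-16, 2.67 ± 0.16 in daf-2, 2.40 ± 0.15 in daf-2;daf-16 and 2.71 ± 0.16 in N2.

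Among the members that fell, ttr-26 (Y51A2D.11) had 8.98, 8.85 and 8.92 in starved N2 larvae, against 10.66, 10.98 and 10.87 in untreated N2 larvae. It had 7.55, 7.66, 7.79 and 8.03 in starved daf-2;daf-16 larvae, against 10.53, 10.10 and 10.08 in untreated daf-2;daf-16 larvae. The groups did not overlap in any strain. The fall was −2.13 ± 0.15 in daf-16, −1.61 ± 0.13 in daf-2, −2.48 ± 0.12 in daf-2;daf-16 and −1.92 ± 0.13 in N2. For ttr-31 the differences were −0.71, −1.18, −1.59 and −1.12 in the same order, and for ttr-28 they were −1.02, −1.51, −0.98 and −1.27.

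These differences ran beside changes in cell type and stage markers. In starved N2 larvae 27 of 32 molting genes and 5 of 6 epidermis markers fell, while 7 of 8 neuron, 5 of 6 body muscle and 5 of 5 pharynx markers rose. The molting score was −2.23 to −2.15 on starved N2 arrays and 1.97 to 2.08 on untreated N2 arrays. Over the 4 strains 21 to 28 molting genes and 5 to 6 epidermis markers fell, and 7 neuron, 3 to 5 body muscle and 4 to 5 pharynx markers rose. In each strain 3 molting genes rose. Of 6 intestine markers 3 rose in each strain and 2 to 3 fell. RNA integrity was read from the signal of a 3′ probe set minus that of the 5′ probe set of the same control gene. For glyceraldehyde-3-phosphate dehydrogenase it was 0.33 to 0.62 on starved N2 arrays, against 0.73 to 0.91 on untreated N2 arrays, and 0.59 to 0.62 on starved daf-16 arrays, against 0.62 to 0.86 on untreated daf-16 arrays. For actin and ubiquitin it overlapped in N2 but not in daf-16, where it was 0.51 to 0.58 on starved arrays, against 0.67 to 0.74 on untreated ones for actin, and 4.99 to 5.18, against 4.81 to 4.97 for ubiquitin. In both daf-2 strains all 3 controls overlapped. The part of these changes in the ttr differences was not tested. Without the 3 arrays that stood apart, 18 ttr genes rose and 12 fell in starved daf-2;daf-16 larvae.

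**Figure D2:**
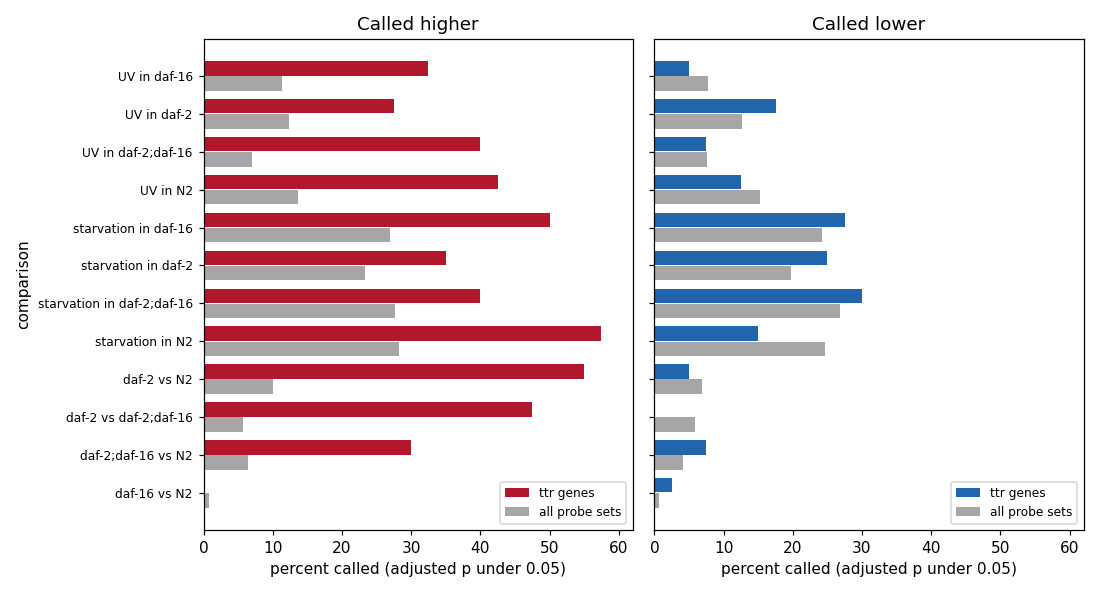
Percent of the 40 ttr genes (coloured bars) and of all 22548 probe sets (grey bars) called higher (left) or lower (right) in each of 12 comparisons, at adjusted p under 0.05. In N2 starvation 57.5% of ttr genes rose, against 28.3% of all probe sets, and in daf-2 against N2 55% were higher, against 9.97%.

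UV treatment also raised more ttr genes than it lowered. In daf-16 larvae after UV 13 of 40 ttr genes rose and 2 fell (11.3% and 7.76% of all probe sets). In daf-2 larvae 11 rose and 7 fell (12.3% and 12.6% of all probe sets). In daf-2;daf-16 larvae 16 rose and 3 fell (7.03% and 7.58% of all probe sets). In N2 larvae 17 rose and 5 fell (13.6% and 15.2% of all probe sets). In all, 5 of 40 rose in 4 of 4 strains, ttr-6, ttr-15, ttr-17, ttr-32 and ttr-51, against 4.46% of all genes. None of the 40 fell in 4 of 4 strains, against 2.15% of all genes, and 9 were called by limma in no strain, against 56.8% of all genes. The UV and starvation comparisons of a strain share its untreated arrays.

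The largest UV rise was that of ttr-15 (T07C4.5). Its signal was 12.05, 12.09 and 11.86 in N2 larvae after UV, against 9.50, 8.75 and 8.67 in untreated N2 larvae. In daf-16 it was 11.67, 11.41 and 12.11 after UV, against 9.22, 9.48 and 9.34 in untreated larvae. The groups did not overlap, and the rise was 2.38 ± 0.17 in daf-16 (adjusted p 2.5e-12) and 3.03 ± 0.17 in N2 (8.16-fold, adjusted p 2.9e-15). In daf-2 it was 12.38, 12.58 and 12.62 after UV, against 11.57, 11.45 and 11.43 in untreated larvae. In daf-2;daf-16 it was 11.88, 11.97 and 12.02 after UV, against 10.30, 10.33 and 10.38 in untreated larvae. The arrays after UV were again all higher, but the untreated level was also higher in these strains than in N2, and the rises were 1.04 ± 0.17 and 1.62 ± 0.17. Under starvation ttr-15 rose by 1.75 ± 0.19 in daf-16 and 2.49 ± 0.17 in N2, and the difference was 0.56 ± 0.15 in daf-2;daf-16, where the groups overlapped on replicate 4, and 0.10 ± 0.17 in daf-2 (adjusted p 6.9e-01).

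A smaller and more even rise after UV was that of ttr-6 (T28B4.3). It had 9.92, 10.09 and 9.97 in N2 larvae after UV, against 8.99, 9.07 and 9.17 in untreated N2 larvae. Its rise was 0.77 ± 0.07 in daf-16, 0.99 ± 0.07 in daf-2, 0.71 ± 0.07 in daf-2;daf-16 and 0.92 ± 0.07 in N2, and the groups were apart in every strain. After UV ttr-21 rose by 1.74 ± 0.21 in daf-16, 0.62 ± 0.21 in daf-2;daf-16 and 2.32 ± 0.21 in N2. The daf-2;daf-16 call (adjusted p 3.9e-02) was lost without replicate 1 of untreated daf-2;daf-16 or without any 1 of the 3 UV arrays, with differences of 0.36 to 0.63. In daf-2 its difference was 0.52 ± 0.21 (adjusted p 6.4e-02). The rises of ttr-17 after UV were 1.21 ± 0.11 in daf-16, 0.83 ± 0.11 in daf-2, 0.95 ± 0.11 in daf-2;daf-16 and 1.74 ± 0.11 in N2. Those of ttr-32 were 1.06, 0.55, 0.88 and 1.54 in the same order of strains. In daf-2 the largest UV rise was that of ttr-37 (1.09), which was also called higher after UV in daf-2;daf-16.

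The largest UV fall was that of ttr-27 (R90.2) in daf-2, with 7.94, 7.92 and 7.81 after UV, against 9.64, 9.67 and 9.64 in untreated larvae. In N2 it was 8.52, 7.66 and 8.22 after UV, against 9.07, 8.96 and 8.69 in untreated larvae. The groups did not overlap in either strain, with falls of −1.76 ± 0.14 (adjusted p 9.4e-12) and −0.78 ± 0.14 (adjusted p 5.0e-05). In daf-16 the groups overlapped and the difference was −0.12 ± 0.14. The neighbouring ttr-28 fell by 0.68 in daf-2 and by 0.98 in N2 after UV. In daf-2 ttr-22 was also called lower, with a mean of 5.42 after UV, against 6.13 in untreated larvae.

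A few members moved in opposite directions after UV. The signal of ttr-54 (T14G10.4) was 7.55, 7.60 and 7.52 in daf-2 larvae after UV, against 7.19, 7.13 and 7.15 in untreated daf-2 larvae. In N2 it was 7.60, 7.37 and 7.54 after UV, against 7.89, 7.93 and 8.04 in untreated larvae. It was higher after UV in daf-2 (0.40 ± 0.15, adjusted p 4.1e-02) and lower in N2 (−0.45 ± 0.15, adjusted p 2.0e-02) and daf-16 (−0.49 ± 0.15, adjusted p 1.6e-02), with no overlap in any of these. Each of these calls was lost without single arrays. In daf-2 any 1 of the 6 arrays sufficed, with differences of 0.38 to 0.42. In N2 it was replicate 3 of untreated larvae or replicate 2 after UV, with −0.40 to −0.38, and in daf-16 replicate 1 or 3 of untreated larvae or replicate 3 after UV, with −0.47 to −0.34. The difference between the UV responses of daf-2 and N2, 0.85 ± 0.21 (adjusted p 1.1e-02), kept its call without each single array. For ttr-31 the UV difference was −0.41 ± 0.12 in daf-2, against 0.49 ± 0.12 in daf-16 and 0.37 ± 0.12 in N2. The daf-16 call of ttr-31 was lost without replicate 3 after UV (0.37), and the N2 call without replicate 2 or 3 of untreated larvae or replicate 1 after UV (0.30 to 0.32).

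Of the 32 molting genes, 21 fell after UV in daf-16, 21 in daf-2, 4 in daf-2;daf-16 and 26 in N2. In each strain 3 others rose. Of the 8 neuron markers, 2, 5, 3 and 5 fell in the same order of strains. Of the 6 epidermis markers, 4, 4, 2 and 4 fell, and of the 5 pharynx markers 4, 2, 3 and 4 rose, with 1 lower in N2. Of the 6 body muscle markers 1, 2, 0 and 1 fell, and of the 6 intestine markers 1, 1, 0 and 1 rose. The 3′ minus 5′ difference of glyceraldehyde-3-phosphate dehydrogenase was 0.48 to 0.60 on daf-16 arrays after UV, against 0.62 to 0.86 on untreated ones, and that of actin was 0.87 to 1.12 on daf-2 arrays after UV, against 0.63 to 0.79 on untreated ones. For the other strains and controls these groups overlapped. The part of all these in the ttr differences was not tested. The molting score after UV was lowest in daf-2, at −1.34 to −0.74, against 1.11 to 1.17 on untreated daf-2 arrays. Without the 3 arrays that stood apart, 14 ttr genes rose and 1 fell after UV in daf-16, and 18 rose and 3 fell in daf-2;daf-16. Without replicate 3 after UV, 10 ttr genes rose and 1 fell in daf-2;daf-16.

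**Figure D3:**
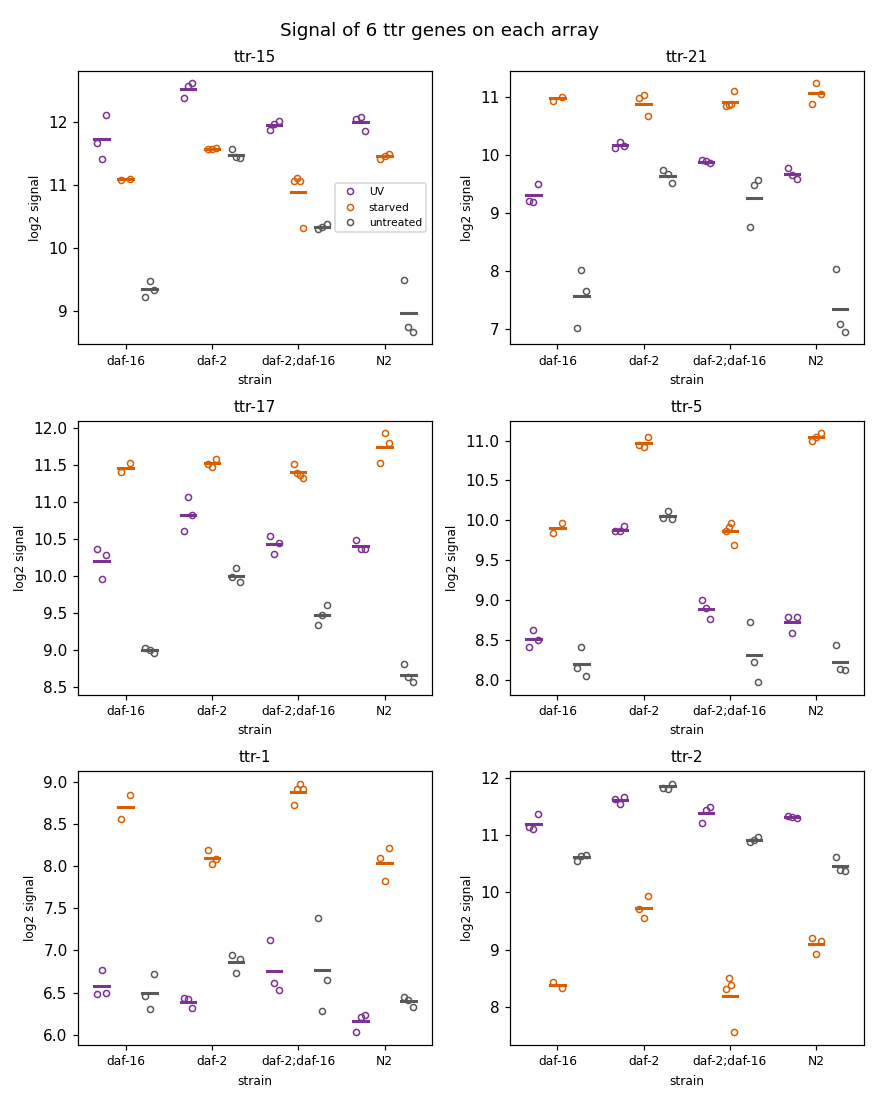
Log2 signal of ttr-15, ttr-21, ttr-17, ttr-5, ttr-1 and ttr-2 on each of the 36 arrays (circles), by strain, with UV, starved and untreated larvae side by side and a bar at each group mean. Untreated daf-2 larvae lie above untreated N2 larvae for all 6 genes, with means of 11.48 and 8.97 for ttr-15 (the difference of ttr-1 was not called), and for ttr-21 the starved arrays of all strains lie between 10.66 and 11.23.

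Without treatment, ttr genes were mostly higher in daf-2 larvae. Against untreated N2, 22 of 40 ttr genes were higher in untreated daf-2 and 2 were lower (9.97% and 6.81% of all probe sets), with a median difference of 0.48 for ttr genes and −0.01 for all genes. Against untreated daf-2;daf-16, 19 of 40 were higher in untreated daf-2 (5.75% of all probe sets) and none was called lower by limma (5.84% of all probe sets). At an unadjusted p under 0.05 the counts were 21 and 0, and the median difference was 0.27 for ttr genes and −0.02 for all genes. Untreated daf-2;daf-16 had 12 ttr genes higher and 3 lower than N2 (6.45% and 4.1% of all probe sets). In untreated daf-16 larvae no ttr gene was called higher than in N2 and 1 was called lower (0.825% and 0.603% of all probe sets), while at an unadjusted p under 0.05 limma gave 6 and 4. These comparisons share untreated arrays with each other and with the treatment comparisons.

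The largest differences between daf-2 and N2 were those of ttr-15, with 11.57, 11.45 and 11.43 in daf-2 against 9.50, 8.75 and 8.67 in N2 (2.51 ± 0.17, adjusted p 2.3e-13), and of ttr-21 (2.29 ± 0.21). Untreated daf-2;daf-16 was also above N2 for both, by 1.36 ± 0.17 for ttr-15 and 1.91 ± 0.21 for ttr-21. Against daf-2;daf-16, daf-2 was higher by 1.15 ± 0.17 for ttr-15, while the difference for ttr-21 was 0.38 ± 0.21 (adjusted p 3.1e-01).

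For ttr-5 (C40H1.5) the arrays of the double mutant overlapped those of N2. Its untreated signal was 10.03, 10.12 and 10.02 in daf-2, against 8.72, 8.22 and 7.97 in daf-2;daf-16, a difference of 1.75 ± 0.12 (adjusted p 5.8e-13). Untreated N2 had 8.43, 8.13 and 8.12, and untreated daf-16 had 8.15, 8.41 and 8.05. The 3 daf-2 arrays stood above all others and the other strains overlapped, with a difference of 1.83 ± 0.12 for daf-2 against N2 and 0.08 ± 0.12 for daf-2;daf-16 against N2 (adjusted p 7.8e-01). The same held for ttr-25 (Y51A2D.10), with 9.60, 9.59 and 9.53 in daf-2, against 8.61, 8.25 and 8.38 in daf-2;daf-16 and 8.49, 8.50 and 8.36 in N2. Its daf-2 arrays were about 1 unit above the rest, and daf-2 was higher by 1.16 ± 0.12 than daf-2;daf-16 and by 1.12 ± 0.12 than N2. Large differences of daf-2 to daf-2;daf-16 were also found for ttr-29 (1.48 ± 0.24) and ttr-2 (0.93 ± 0.14).

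The 2 members lower in daf-2 than in N2 were ttr-54 (−0.79 ± 0.15) and ttr-28 (−0.69 ± 0.19). The only ttr gene called between daf-16 and N2 was ttr-26, with 10.07, 10.19 and 10.26 in untreated daf-16, against 10.66, 10.98 and 10.87 in untreated N2. All daf-16 arrays were below all N2 arrays, with a difference of −0.67 ± 0.13 (adjusted p 2.8e-03). It was also lower in daf-2;daf-16 than in N2 (−0.60 ± 0.13), and in daf-2 the difference to N2 was 0.13 ± 0.13 (adjusted p 5.9e-01). For ttr-29, daf-2;daf-16 was below N2 (−0.95 ± 0.24), a call lost without replicate 2 or replicate 3 of untreated daf-2;daf-16 (−0.88 to −0.69).

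Of the molting genes, 17 of 32 were lower and 4 higher in untreated daf-2 than in N2, and 3 were lower and 1 higher against the double mutant. Against N2, 4 of 6 epidermis markers were lower and 1 higher in daf-2, 2 of 6 intestine markers were higher and 1 lower, and 2 of 5 pharynx markers were higher. Against the double mutant, 2 of 6 body muscle, 1 of 6 epidermis and 1 of 6 intestine markers were higher. In daf-2;daf-16, 13 of 32 molting genes were lower and 2 higher than in N2, with 2 of 6 epidermis markers lower and 2 of 5 pharynx markers higher. The 3′ minus 5′ difference of glyceraldehyde-3-phosphate dehydrogenase was 0.29 to 0.55 on untreated daf-2 arrays, 0.61 to 0.71 on untreated daf-2;daf-16 arrays and 0.73 to 0.91 on untreated N2 arrays. That of actin overlapped, with 0.63 to 0.79, 0.56 to 0.81 and 0.68 to 0.95 in the same order, and so did that of ubiquitin, with 4.88 to 5.11, 4.91 to 5.13 and 4.75 to 4.95. Their part in the ttr differences was not tested. Without the 3 arrays that stood apart, 18 ttr genes were higher in daf-2 than in the double mutant and none was called lower, and 13 were higher and 4 lower in daf-2;daf-16 than in N2. Without replicate 1 of untreated N2, 2 ttr genes rather than 1 were called between daf-16 and N2.

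The responses themselves differed between strains for some ttr genes. Under starvation, 6 ttr genes responded lower in daf-16 than in N2 and none higher (1.71% and 1.29% of all probe sets). The largest difference was that of ttr-5, with 9.84 and 9.96 in starved daf-16 larvae, against 10.99, 11.04 and 11.09 in starved N2 larvae. The starved groups were about 1 unit apart where the untreated groups overlapped. Its rise was 1.69 ± 0.13 in daf-16 and 2.82 ± 0.12 in N2, a difference of −1.12 ± 0.18 (adjusted p 1.2e-04). Its starved level in daf-2;daf-16 was 9.69 to 9.97 and in daf-2 10.92 to 11.05, so the strains with mutant daf-16 lay below those without. In daf-2 it rose by 0.91 ± 0.12, against 1.55 ± 0.11 in daf-2;daf-16.

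The starvation responses of ttr-25 and ttr-48 differed in sign between daf-16 and N2. For ttr-25 the signal was 7.81 and 7.92 in starved daf-16 larvae, against 8.36, 8.36 and 8.18 in untreated daf-16 larvae, and it averaged 9.05 ± 0.06 in starved N2 larvae (SD, n = 3), against 8.49, 8.50 and 8.36 in untreated N2 larvae. The groups were apart in both strains, in opposite directions, with differences of −0.44 ± 0.14 in daf-16 and 0.60 ± 0.12 in N2. The daf-16 call was lost without replicate 1 of the starved larvae (−0.38). The difference between these responses was −1.03 ± 0.18 (adjusted p 4.8e-04). In daf-2;daf-16 ttr-25 fell by 0.67, and in daf-2 its difference was 0.06 ± 0.12 (adjusted p 7.5e-01), and these responses differed by 0.73 ± 0.17 (adjusted p 2.7e-03). Without the 3 arrays that stood apart, these values were −0.42 for the fall and 0.48 for the difference, and both stayed called. For ttr-48 (ZC64.2) the signal was 9.71 and 9.73 in starved daf-16 larvae, against 10.29, 10.23 and 10.23 in untreated daf-16 larvae, and 10.31, 10.34 and 10.36 in starved N2 larvae, against 10.10, 10.09 and 10.20 in untreated N2 larvae. Starved daf-16 arrays were the lower ones and starved N2 arrays the higher ones, with differences of −0.53 ± 0.06 and 0.21 ± 0.06, and the responses differed by −0.74 ± 0.08 (adjusted p 6.4e-07). In daf-2;daf-16 ttr-48 fell by 0.67 and in daf-2 its difference was −0.09 ± 0.06 (adjusted p 2.5e-01), a difference between responses of 0.58 ± 0.08 (adjusted p 2.0e-06). Under starvation ttr-8 and ttr-27 were also called in opposite directions in different strains. The differences in daf-16 and daf-2;daf-16 were 0.58 and −0.43 for ttr-8, and 0.40 and −0.31 for ttr-27. Each of these ttr-8 and ttr-27 calls was lost without single arrays.

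Set against the double mutant, the starvation response was lower in daf-2 for 8 ttr genes and higher for 4 (7.54% and 5.25% of all probe sets). The lower ones included ttr-10 (−1.03 ± 0.17, adjusted p 8.2e-05) and ttr-44 (−0.97 ± 0.13, adjusted p 2.3e-06). The highest difference was that of ttr-26 (0.88 ± 0.18), which fell in both strains and less in daf-2. Between daf-2 and N2, 22 ttr genes had a lower starvation response in daf-2 and 1 a higher one (8.89% and 5.96% of all probe sets), led by ttr-21 (−2.46 ± 0.29) and ttr-15 (−2.38 ± 0.23). Each of these values holds the untreated difference between the strains with its sign turned. In the comparison with the double mutant 4 molting genes responded higher and 1 lower in daf-2. Lower responses were also those of 2 of 6 body muscle, 1 of 8 neuron, 1 of 5 pharynx and 1 of 6 epidermis markers. Of the 6 intestine markers, 1 responded higher and 1 lower. In that with N2, 15 molting genes responded higher and 2 lower, and 4 of 5 pharynx and 1 of 8 neuron markers lower. Of the 6 epidermis markers 3 responded higher and 1 lower, and of the 6 intestine markers 1 higher and 1 lower. Their part was not tested.

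After UV, limma called no ttr gene as different between the responses of daf-16 and N2 (1.04% of all probe sets were higher and 0.807% lower in daf-16), and 10 had an unadjusted p under 0.05. Set against the double mutant, the UV response was lower in daf-2 for 5 ttr genes and higher for 2 (2.75% and 2.7% of all probe sets). The largest was ttr-27, whose UV fall was −1.76 ± 0.14 in daf-2, against −0.49 ± 0.14 in daf-2;daf-16, a difference of −1.27 ± 0.20 (adjusted p 4.5e-05). The smaller of these falls lost its call without UV replicate 1 or untreated replicate 3 of that strain (−0.44 to −0.41). In this comparison 20 of 32 molting genes, 2 of 6 epidermis markers and 1 of 6 body muscle markers also had a lower UV response in daf-2, and their part in the result was not tested. Between daf-2 and N2, 12 ttr genes had a lower UV response in daf-2 and 1 a higher one (2.57% and 2.09% of all probe sets). These UV values, too, hold the untreated difference between the strains with its sign turned. Here 16 of 32 molting genes responded lower and 3 higher. Of the other markers, 1 of 6 epidermis and 1 of 5 pharynx markers responded lower and 1 of 6 intestine markers higher. Their part was not tested either. Without replicate 3 of daf-16 after UV, 6 ttr genes were called between the UV responses of daf-16 and N2, and 1 was without replicate 1 of N2 after UV or of untreated N2. Without the 3 arrays that stood apart, the UV response in daf-2 was lower than in daf-2;daf-16 for 9 ttr genes and higher for 3, and the starvation response was lower for 10 and higher for 6. Without replicate 2 of starved daf-16, 3 rather than 6 were called between their starvation responses.

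Several ttr genes lie next to each other in the RefSeq gene table (assembly WBcel235), and neighbours did not always move alike. Both members were measured for 8 such pairs: ttr-2 and ttr-1, ttr-8 and ttr-32, ttr-16 and ttr-17, ttr-54 and ttr-53, and the neighbouring pairs within ttr-24, ttr-25 and ttr-26 and within ttr-27, ttr-28 and ttr-29. The pair of ttr-1 (K03H1.6) and ttr-2 (K03H1.4) went opposite ways under starvation. In N2, ttr-1 had 8.10, 7.82 and 8.21 in starved larvae, against 6.45, 6.41 and 6.33 in untreated larvae, while ttr-2 had 9.20, 8.93 and 9.16 in starved larvae, against 10.61, 10.39 and 10.37 in untreated larvae. Starved and untreated groups were apart for both genes in every strain. The rise of ttr-1 was 2.20 ± 0.19 in daf-16, 1.24 ± 0.17 in daf-2, 2.11 ± 0.16 in daf-2;daf-16 and 1.65 ± 0.17 in N2, and the fall of ttr-2 was −2.23 ± 0.15, −2.12 ± 0.14, −2.73 ± 0.13 and −1.36 ± 0.14 in the same order. After UV, ttr-2 rose by 0.59 ± 0.14 in daf-16 and 0.86 ± 0.14 in N2, while the difference of ttr-1 was 0.09 ± 0.17 and −0.23 ± 0.17 (adjusted p 7.9e-01 and 3.4e-01).

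In the run of ttr-24, ttr-25 and ttr-26, the last gene fell under starvation in all strains, while ttr-24 rose in N2 by 0.47 ± 0.10. The second probe set of ttr-24 had 10.14 to 10.24 in starved N2 larvae, against 9.62 to 9.79 in untreated N2 larvae, and so did not overlap either. In the run of ttr-27, ttr-28 and ttr-29, ttr-29 (R90.4) had 8.32, 8.89 and 8.79 in daf-2 larvae after UV, against 7.85, 7.95 and 7.53 in untreated daf-2 larvae. These groups were apart, and ttr-29 rose by 0.89 ± 0.24 (adjusted p 4.9e-03) where ttr-27 and ttr-28 fell. Of ttr-54 and ttr-53, ttr-54 was higher and ttr-53 lower in starved daf-2 larvae than in untreated ones, with differences of 1.16 ± 0.15 and −0.36 ± 0.10. By contrast ttr-8 and ttr-32 both rose after UV in daf-16, daf-2;daf-16 and N2, by 1.53, 0.73 and 1.36 for ttr-8. In daf-2 after UV ttr-32 rose too, while ttr-8 averaged 8.27, against 8.34 in untreated larvae, and was not called. Under starvation ttr-8 was higher in daf-16 (0.58) and lower in daf-2;daf-16 (−0.43), while ttr-32 was called lower in no strain. Both of these ttr-8 calls were lost without single arrays.

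**Figure D4:**
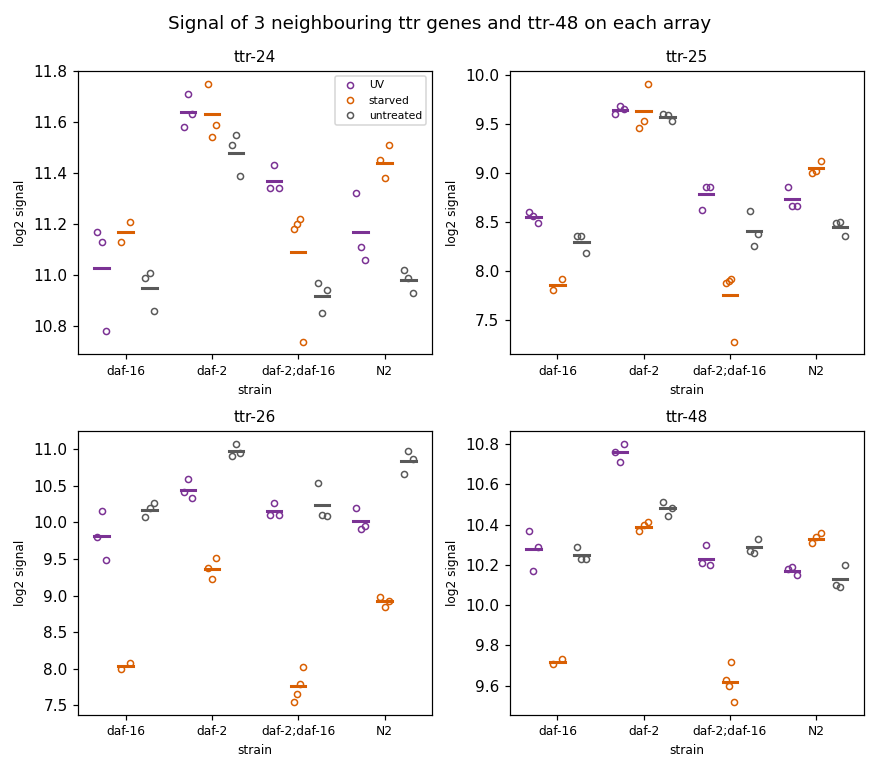
Log2 signal of the neighbours ttr-24, ttr-25 and ttr-26 and of ttr-48 on each of the 36 arrays (circles), by strain, with UV, starved and untreated larvae side by side and a bar at each group mean. For ttr-25 and ttr-48 the starved arrays lie below the untreated ones in daf-16 and daf-2;daf-16 and above them in N2, and for ttr-26 they lie lowest in all strains.

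Of the members with a described role, only ttr-52 (F11F1.7) was measured. Its signal was 3.36 to 4.03 over the 36 arrays, with a mean of 3.64 that lay above 9.6% of all genes. It was called once, in starved against untreated daf-16 larvae (0.33 ± 0.11, adjusted p 1.5e-02), a call lost without replicate 2 of the starved larvae or replicate 3 of the untreated larvae (0.26 to 0.27). Of the 13 genes that act with TTR-52 or in phosphatidylserine exposure and engulfment, 3 rose and 0 fell after UV in daf-16 (11.3% and 7.76% of all probe sets), 1 rose and 4 fell in daf-2 (12.3% and 12.6%), 1 rose and 3 fell in daf-2;daf-16 (7.03% and 7.58%) and 2 rose and 4 fell in N2 (13.6% and 15.2%). Under starvation 3 rose and 3 fell in daf-16 (27% and 24.2%), 1 rose and 4 fell in daf-2 (23.3% and 19.7%), 2 rose and 4 fell in daf-2;daf-16 (27.7% and 26.8%) and 4 rose and 4 fell in N2 (28.3% and 24.7%). The gene nrf-5, whose product is a secreted lipid-binding protein that also takes part in phosphatidylserine transfer, rose under starvation in all strains, by between 1.20 and 1.72. The gene of the cell fusion protein EFF-1, eff-1, fell under starvation in all strains, with differences of −1.13 to −0.71.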

How the data were processed

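Total RNA of whole L1 larvae was hybridised to 36 Affymetrix arrays. The deposited values are log2 signals of 22625 probe sets, made by the authors; the submitters' processing notes name Affymetrix Power Tools, with no version, background correction or summary method. They were used as deposited. Control probe sets (77) were left out, and 22548 were tested with limma 3.58.1 in R 4.3.3 (lmFit, eBayes with trend, 1 mean per group, 24 residual degrees of freedom), with p-values adjusted over all of them by the Benjamini-Hochberg method. The fit was tested on simulated data. Of the probe sets, 20766 carried 1 gene symbol, 887 several and 895 none. Samples were grouped by the labels' genotype and treatment. Replicate numbers were not used as pairs in the main fit, and the labels do not say whether they pair the samples. Same-numbered deviations correlated between −0.21 and 0.435 and in no comparison were all above 0.1. All were positive for UV in daf-16 (0.361, 0.0909 and 0.178), starvation in daf-2 (0.435, 0.0701 and 0.337) and daf-2 against N2 (0.0333, 0.0131 and 0.137). All were negative for daf-16 and for daf-2;daf-16 against N2, and signs were mixed elsewhere. The source of these correlations was not tested.

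The members and gene lists were chosen with earlier results of these data known. Named genes were drawn from the 5 largest rises and falls per comparison among called genes with groups that did not overlap. Others were the called genes of the interactions, the 3 highest and lowest means, and members with a described role. Further members, the 2 interactions of daf-2 with N2 and the setting without 3 arrays were chosen after their values were seen. Alternatives were quantile normalization, array weights, a replicate block, no dim probe sets (the lowest 33.3%), no shared probe sets, only the groups compared and leaving out each array.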

Additional observations from a re-analysis of the deposited data

Results flagged for a closer look

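In the group of 4 starved daf-2;daf-16 arrays, replicate 4 lay far from the other 3 for 5 of the 40 ttr genes. For each gene, chance marks about 1 in 20 groups in this way, so some of 40 genes would be marked by chance. The 5 genes come from the same array, which also stood apart over all probe sets. Its signal was 10.32 for ttr-15 (11.07 to 11.11 on the others), 10.74 for ttr-24, 7.28 for ttr-25, 9.26 for ttr-27 and 8.24 for ttr-31. It was the highest of the 4 for ttr-27 and the lowest for the other 4 genes. Without the 3 arrays that stood apart, 18 ttr genes rose and 12 fell in starved daf-2;daf-16 larvae, against 16 and 12 with them.

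Responses that differed between strains in limma's test of the difference itself were as follows, as log2 differences of responses with adjusted p. For UV, daf-2 minus daf-2;daf-16, the difference was 0.49 for ttr-46 (2.1e-03), 0.33 for ttr-48 (8.3e-03), −1.27 for ttr-27 (4.5e-05), −0.81 for ttr-8 (3.1e-02), −0.75 for ttr-5 (3.8e-03), −0.70 for ttr-2 (2.5e-02) and −0.47 for ttr-44 (2.9e-02). The call of ttr-8 was lost without any 1 of 6 single arrays (−0.80 to −0.68): replicates 1 and 2 of untreated daf-2, replicate 1 of daf-2 after UV, replicates 2 and 3 of daf-2;daf-16 after UV, and untreated daf-2;daf-16 replicate 1. That of ttr-2 was lost without replicate 3 of untreated daf-2, 2 of daf-2 after UV, 2 of untreated daf-2;daf-16 or 2 or 3 of daf-2;daf-16 after UV (−0.70 to −0.65). That of ttr-44 was lost without replicate 1 of untreated daf-2, 2 or 3 of daf-2 after UV, 1 or 2 of untreated daf-2;daf-16 or 1 of daf-2;daf-16 after UV (−0.48 to −0.30).

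For starvation, daf-16 minus N2, it was −1.12 for ttr-5 (1.2e-04), −1.03 for ttr-25 (4.8e-04), −0.87 for ttr-2 (1.3e-02), −0.75 for ttr-22 (3.1e-02), −0.74 for ttr-48 (6.4e-07) and −0.61 for ttr-17 (2.3e-02). The call of ttr-2 was lost without replicate 2 of starved daf-16 (−0.82). That of ttr-22 was lost without any 1 of 7 arrays, replicate 2 of untreated daf-16, both starved daf-16 arrays and replicates 2 and 3 of starved and of untreated N2 (−0.78 to −0.61). That of ttr-17 was lost without any 1 of the same 7 arrays with replicate 1 of untreated daf-16 in place of replicate 2 (−0.68 to −0.53).

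For starvation, daf-2 minus daf-2;daf-16, it was 0.88 for ttr-26 (8.4e-04), 0.73 for ttr-25 (2.7e-03), 0.61 for ttr-2 (2.9e-02), 0.58 for ttr-48 (2.0e-06), −1.03 for ttr-10 (8.2e-05), −0.97 for ttr-44 (2.3e-06), −0.88 for ttr-1 (1.0e-02), −0.64 for ttr-51 (8.8e-05), −0.64 for ttr-5 (7.5e-03), −0.60 for ttr-35 (9.8e-04), −0.58 for ttr-23 (2.4e-02) and −0.52 for ttr-20 (1.3e-02). The call of ttr-2 was lost without replicate 3 of starved daf-2, 1 or 2 of untreated daf-2 or 2 or 3 of untreated daf-2;daf-16 (0.51 to 0.61), and that of ttr-1 without replicate 2 of untreated daf-2;daf-16 (−0.63). Without replicate 4 of starved daf-2;daf-16 the value of ttr-2 was 0.40 and it stayed called. The call of ttr-20 was lost without untreated daf-2;daf-16 replicate 3 (−0.44), and that of ttr-23 without replicate 2 of untreated daf-2, 3 of starved daf-2, 1 of untreated daf-2;daf-16 or 4 of starved daf-2;daf-16 (−0.54 to −0.44).

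The largest differences of daf-2 minus N2 were also tested. For UV they were 0.85 for ttr-54 (1.1e-02), −1.99 for ttr-15 (1.7e-06), −1.80 for ttr-21 (1.3e-04), −1.43 for ttr-8 (1.4e-04), −1.09 for ttr-2 (4.7e-04) and −0.98 for ttr-32 (7.5e-04). For starvation they were 0.72 for ttr-54 (1.6e-02), −2.46 for ttr-21 (2.7e-07), −2.38 for ttr-15 (7.9e-09), −1.91 for ttr-5 (1.1e-09), −1.56 for ttr-17 (4.7e-09) and −1.50 for ttr-8 (1.8e-05). The UV and starvation values of a pair of strains share the untreated arrays.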

How the results depend on the processing

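Over 306 called pairs of a ttr gene and a comparison, no alternative turned a direction, and 3851 of 4099 values kept their call. On the log2 scale 23 values, of 11 pairs, moved by over 1.5 times. Without replicate 1 of untreated daf-2;daf-16 these were, after UV in that strain, ttr-21 (0.36, against 0.62) and ttr-28 (−0.33, against −0.58), under starvation in it ttr-50 (−0.15, against −0.27), for daf-2 against it ttr-22 (0.28, against 0.43) and ttr-46 (0.10, against 0.22), and for it against N2 ttr-54 (−0.80, against −0.51, which was −0.32 without replicate 2). Without UV replicate 1 of the same strain, the UV difference of ttr-44 there was 0.17, against 0.34. Array weights moved ttr-28 (−0.33), ttr-50 (−0.17), ttr-22 (0.24) and ttr-46 (0.10) in these comparisons, and the replicate block the starvation response of ttr-2 (0.40). The block fitted replicate 4 of starved daf-2;daf-16, the only array of that number, exactly, and without this array the value was 0.40 too. The others were the values of ttr-2, ttr-25 and ttr-44 given above with their responses. Without each single array in turn, 249 pairs kept their call and 57 lost it at least once. Of the counts of called ttr genes, 241 of 260 stayed within 1.5 times. With only the groups compared in the fit, 10 rather than 19 ttr genes were called after UV in daf-2;daf-16, and leaving out single arrays gave 11 to 18. Between untreated daf-16 and N2, where 1 was called, quantile normalization gave 3, array weights 6, only the groups compared 5 and leaving out single arrays 1 to 2. Between the UV responses of daf-16 and N2, where 0 were called, quantile normalization and leaving out the dimmest probe sets each gave 1, array weights 7, leaving out the 3 arrays that stood apart 6 and leaving out single arrays 0 to 6. Between the UV responses of daf-2 and daf-2;daf-16, where 7 were called, array weights gave 14 and leaving out the 3 arrays 12. Between the starvation responses of daf-16 and N2, where 6 were called, array weights gave 11 and leaving out single arrays 3 to 9. Between those of daf-2 and daf-2;daf-16, where 12 were called, array weights gave 22. The cause of these shifts was not tested. With the replicate number as a block, 2 rather than 1 were called between daf-16 and N2, and no other count moved by over 1.5 times. The 8 ttr genes of low signal give little power to see a change.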
